A study of Mus musculus with 6 samples.

Results

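The cytosolic ribosome of mouse skin was followed here through 76 genes, measured by 77 probes, out of 18617 named genes and 22879 rows in all. Genes were taken by symbol: Rpl or Rps followed by a digit, the stalk genes Rplp0, Rplp1 and Rplp2, and Rpsa, without the Rps6k kinases, pseudogene symbols and mitochondrial ribosomal proteins. No measured value entered the choice. Of a list of 79 core ribosomal proteins, 68 were present, 26 of the small and 42 of the large subunit. The other 8 were the paralogues Rpl3l, Rpl7l1, Rpl22l1, Rpl36al, Rpl39l and Rps27l, the retrogene Rps23rg1, and Rps19bp1, which encodes a binding partner of Rps19 and is no ribosomal protein itself. Rpl12 and Rpl36, whose 2 probes carry several symbols, and Rps27a, the ubiquitin fusion gene, were not analysed here.

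Skin RNA of 3 wild-type (WT) mice and 3 LynDN transgenic mice was compared on 2-colour arrays. LynDN stands for a form of Lyn, a Src family tyrosine kinase, which the series title writes as LynDeltaN; the sources used here do not name the promoter that drives it, or the strain, age and sex of the mice. There were 6 arrays, a dye swap of 2 for every mouse pair. LynDN mouse 1 was paired with WT mouse 1, LynDN mouse 2 with WT mouse 3, and LynDN mouse 3 with WT mouse 2. The deposited value is a log ratio of the genotypes whose base was taken as 2 and whose numerator is not stated. Signs are as deposited. The alarmin genes S100a9 and S100a8 lie on the positive side with mean log2 ratios of 5.54 ± 0.16 and 4.61 ± 0.12 (SD, n = 3), so a negative ratio here means the side opposite to these alarmins. Pair 1 stood apart from the others in the Y-linked gene Eif2s3y, at 3.50 against -0.0040 and 0.028 in pairs 2 and 3. A difference in sex between the mice of pair 1, which the sources do not give, cannot be told apart from genotype in that pair. Whole skin holds many cell types. Stressed keratinocyte markers, led by S100a9, were positive in 6 of 6 measured genes (median 4.15), and skeletal muscle markers were negative in 9 of 10 (median -0.35). Medians further on the negative side were those of erythroid (-0.69), suprabasal keratinocyte (-0.55) and hair matrix and shaft markers (-0.52). Neutrophil (0.55), macrophage and monocyte (0.37) and basal keratinocyte markers (0.34) had positive medians. In such tissue fewer cells of a type and less RNA per cell cannot be told apart.

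Ribosomal proteins are the protein parts of the particle that translates every cytosolic message. They are mostly made in equal amounts, and surplus protein is degraded. Their messages are abundant and begin with a run of pyrimidines, the TOP tract, through which growth signals acting on mTORC1 and the binding protein Larp1 set how strongly they are translated, mostly without a change in message level. In skin, mouse mutants of Rps19 and Rps20 have dark footpads and tails, because stressed keratinocytes release a growth factor that draws in melanocytes, and mutants of Rpl24 and Rpl38 have tail, pigment or skeletal phenotypes.

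The tract that gives this gene class its shared regulation can be looked for around the annotated starts. Of the 76 genes, 63 had an entry in a RefSeq promoter table (GRCm38.p6). In a window of 15 bases before to 15 bases after the start, on the sense strand, 26 of the 63 (41.3%) held a C followed by at least 7 further bases that were each C or T, counting any listed start; over all 27025 genes with an entry the share was 10.8%. The windows below are examples from genes named in the results that follow. Most of them hold a match, so they do not reflect the share among the 63. Rpl10a, Rpl26, Rps15 and Rpl10, also named below, had no match at any listed start. Capitals mark the tract where the search found it.
Rpl35 (chr2:39005117-39005146, minus strand): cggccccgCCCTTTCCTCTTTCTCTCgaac
Rpl39 (chrX:37085208-37085237, minus strand): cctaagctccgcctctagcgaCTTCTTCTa
Rpl13a (chr7:45128731-45128760, minus strand): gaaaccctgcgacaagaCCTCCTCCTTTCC
Rps9 (chr7:3704026-3704055, plus strand): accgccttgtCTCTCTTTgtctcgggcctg
Rps6 (chr4:86857353-86857382, minus strand): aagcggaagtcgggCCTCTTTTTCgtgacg
Rpl22l1 (chr3:28805493-28805522, plus strand): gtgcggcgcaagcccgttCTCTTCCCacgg
Rpl22 (chr4:152324421-152324450, plus strand): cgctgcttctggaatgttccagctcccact
Rpl3l (chr17:24727811-24727840, plus strand): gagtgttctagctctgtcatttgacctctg
Rpl22 and Rpl3l have a further listed start each, also without a tract of that length in its window. A missing match says only that these letters are not in the window, and a match is not a measured tract of the message.

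The genotype comparison asked which ribosomal protein messages differ between LynDN and WT skin. None of the 76 passed: 0 genes had an adjusted p under 0.05 in limma on the 3 pair values, where 0.0175% of all rows passed (4 of 22879, S100a9 and S100a8 among them). The smallest adjusted p among the 76 was 0.276, for Rpl22, and 6 genes (7.89%) had an unadjusted p under 0.05 against 12.3% of all rows. With both arrays of each pair kept and the mouse pair as a replicate block, 0 ribosomal protein genes passed as well, where 1.06% of all rows did (0.603% positive and 0.459% negative); 4 (5.26%) had an unadjusted p under 0.05 in that fit, against 14.5% of all rows. Every one of the 76 mean log2 ratios lay within 0.3 of 0, as did 93.3% of named genes. The range ran from -0.29 for Rpl22 to 0.14 for Rpl10, and the SD over the 76 genes was 0.099 against 0.23 over all named genes. The interquartile ranges were alike, 0.129 and 0.132, so the difference in SD lies in the tails. The 95% confidence interval of a gene reached a median of 0.16 to either side of the mean, and for 75 of the 76 genes it stayed inside a change of 1.5-fold (0.585 on the log2 scale). Rpl35a was the exception, with an interval from -0.60 to 0.064. The smallest mean ratio among the 4 rows that passed on the pair values was 2.13 in size, and 0.28 among those that passed with the block. Passing also depends on the spread of each row, so neither size is a threshold. A count of 0 does not show that these genes did not differ.

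As a group the genes had a median log2 ratio of -0.022 (0.022, -0.073 and -0.019 in pairs 1, 2 and 3), beside -0.013 over all named genes. Of the 76 means 30 were positive and 46 negative, which is 39.5% positive against 44.2% of named genes. Small subunit genes had a median of -0.012 and large subunit genes of -0.022. The ratio had 1 sign in all 3 pairs for 28 genes (36.8%), near the 35.5% of all rows. It had 1 sign on all 6 arrays for 2 genes (2.63%), Rpl22 and Rpl10a, against 8.03% of all rows; both were negative throughout, as were 4.31% of all rows, and 0 ribosomal protein genes were positive throughout, as were 3.72%. The spread between genes thus repeated weakly from pair to pair: over the 76 genes, which share arrays and processing, Pearson's r was 0.17 between pairs 1 and 2, 0.45 between pairs 1 and 3 and 0.24 between pairs 2 and 3, beside 0.39, 0.42 and 0.78 over all named genes. Spearman's rho, in the same order, was 0.12, 0.49 and 0.24 over the 76 genes and 0.10, 0.16 and 0.51 over all named genes. By rank the 76 genes thus lay above named genes for pairs 1 and 3, and below them for pairs 2 and 3.

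**Figure D1:**
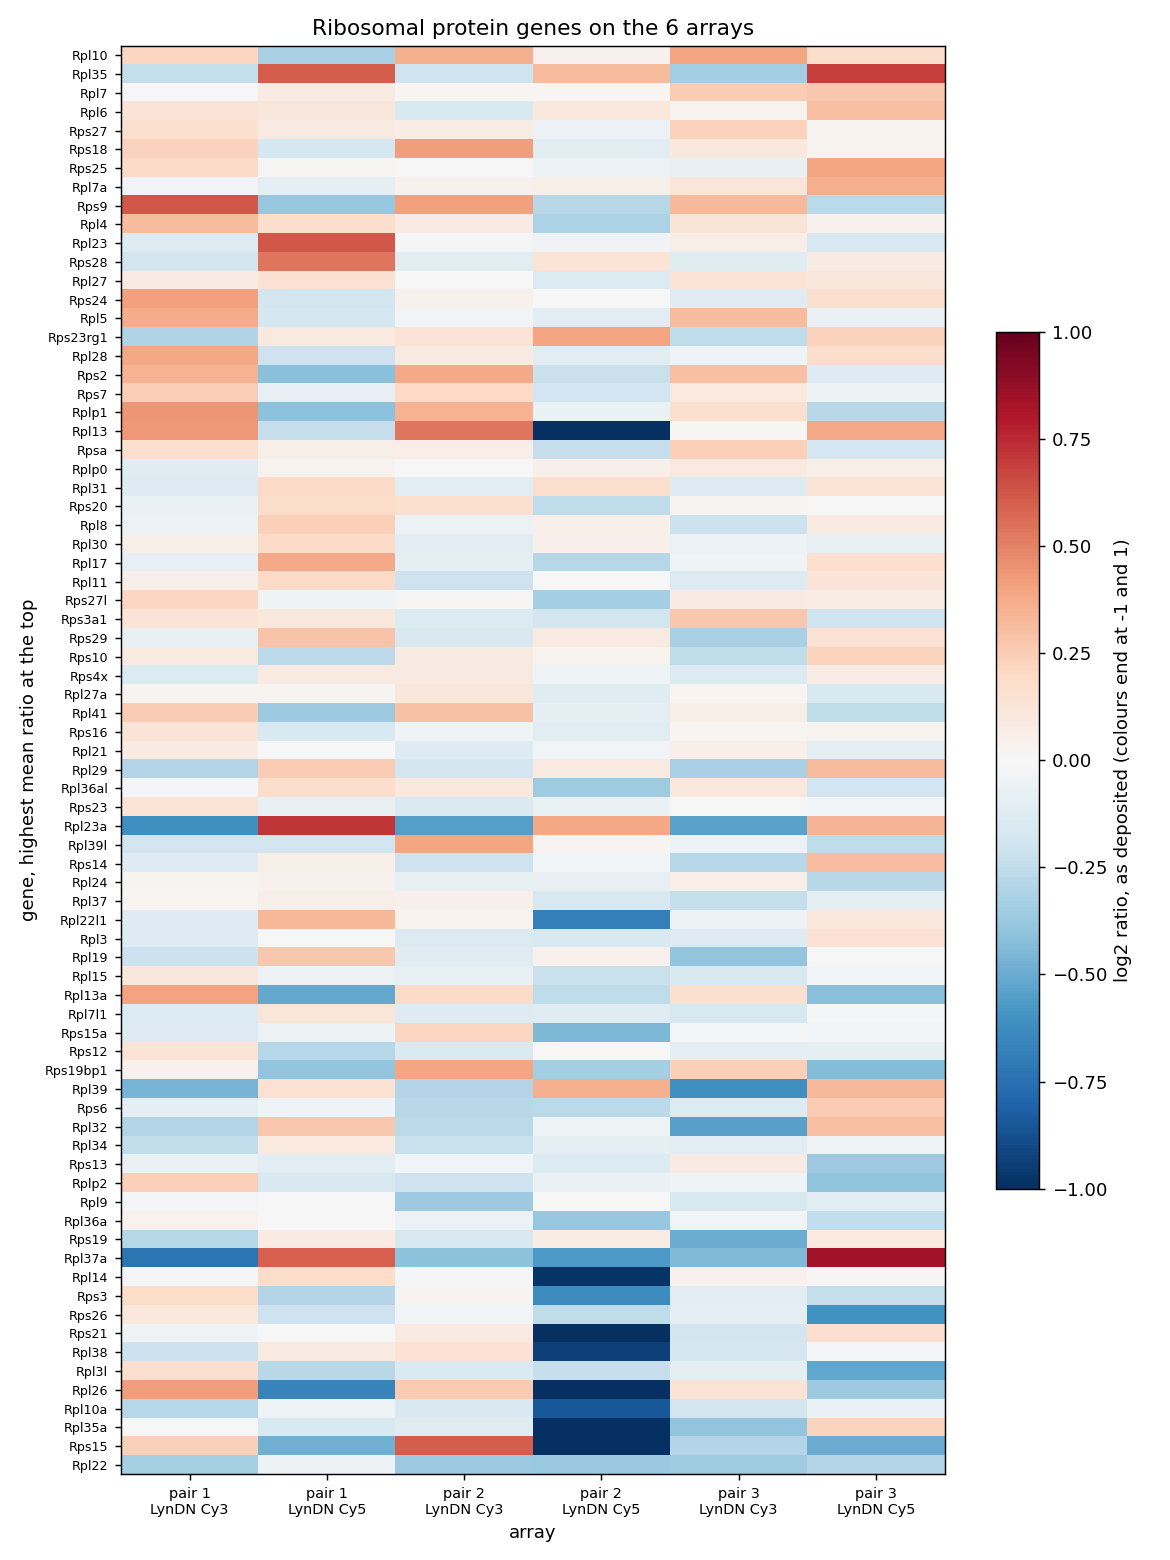
Log2 ratios, as deposited, of the 76 ribosomal protein genes (rows, highest mean ratio at the top) on the 6 arrays (columns, by mouse pair and the dye of LynDN); red is positive, blue is negative, and colours end at -1 and 1. Rpl22, in the bottom row, is blue on all 6 arrays, many rows alternate between the dye orientations, and the darkest blue cells lie on the pair 2 array with LynDN in Cy5.

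Rpl22, a large subunit protein at the rim of the peptide exit tunnel that is needed in developing T cells, had the lowest mean. Its log2 ratios with LynDN in Cy3 were -0.33, -0.36 and -0.35 for pairs 1, 2 and 3, and with LynDN in Cy5 -0.049, -0.37 and -0.29. Genes below are given by pair, the LynDN in Cy3 array first. All 6 were negative, and 5 lay close together. The mean was -0.29 ± 0.092 (SD, n = 3), a 1.22-fold difference; adjusted p was 0.276 in limma on the pair values and 0.0685 with the replicate block. Its paralogue Rpl22l1, which can take the place of Rpl22 in the ribosome and whose level is known to be held down by Rpl22, had -0.13 and 0.33, 0.039 and -0.68, and -0.054 and 0.11. These values lay on both sides of 0 in each pair, and the mean was -0.065 ± 0.22 (SD, n = 3; limma adjusted p = 0.812). T cell markers had a median of -0.10 over 4 measured genes, from -0.32 to 0.039; their part in the Rpl22 value was not tested.

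Rpl10a, which forms the moving arm at the side of the large subunit where spent transfer RNA leaves, was the other gene negative on 6 of 6 arrays. Its ratios were -0.29 and -0.043, -0.15 and -0.85, and -0.19 and -0.063. A single array thus gave a far lower value than the other 5. The mean was -0.26 ± 0.21 (SD, n = 3; limma adjusted p = 0.365), and without that array, in a fit over the other 5 that kept the pairing as a random block, it was -0.13.

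The same array, pair 2 with LynDN in Cy5, gave low values for many of these genes. On it 11 of the 76 genes (14.5%) lay below -0.5, against 3.00% of named genes, while on the other 5 arrays 1 to 3 ribosomal protein genes did. The genes were Rpl26, Rps15, Rpl35a, Rps21, Rpl13, Rpl14, Rpl38, Rpl10a, Rps3, Rpl22l1 and Rpl37a. For Rpl26, which lies at the exit tunnel, the ratio on this array was -1.27, and for Rps15, which reaches toward the decoding site, it was also -1.27. Rpl35a, mutated in some families with Diamond-Blackfan anaemia, had -1.17 there and between -0.39 and 0.22 on the other 5 arrays. Rps21 had -1.13 against -0.18 to 0.16, Rpl14 had -0.98 against -0.017 to 0.19, and Rpl38 had -0.94 against -0.21 to 0.14. Of these 11 probes 9 fall into 3 runs of nearly consecutive numbers in the table: Rpl26, Rps21 and Rpl35a at 641, 643 and 645, Rps15 and Rpl38 at 1697 and 1699, and Rpl37a, Rpl10a, Rpl13 and Rpl14 at 21762, 21764, 21766 and 21768. Rpl22l1, at 6369, and Rps3, at 19046, lie in no such run. Many ribosomal protein probes outside the 11 lie in such runs too, among them Rpl7, Rps25, Rps15a, Rpl13a and Rps24 at 5921, 5923, 5925, 5926 and 5927. A place in a run is thus not particular to the low probes. The other rows within 5 numbers of the 11 probes had medians from -0.30 to -0.032 on that array, where all named genes had a median of -0.028. The lowest of these medians were those around Rpl37a, Rpl10a and Rpl38 (-0.30, -0.30 and -0.28). Some genes outside the 11 had neighbours as low on that array, such as Rps25 (-0.33, own ratio -0.056) and Rpl7 (-0.30, own ratio 0.016). Others did not, such as Rpl36a with a neighbour median of 0.041. Rpl37a, at -0.57, lay within its range on the other 5 arrays (-0.73 to 0.84). Why this array gave low values for these genes was not tested. Without pair 2 the median over the 76 genes was -0.0075, and over the 5 other arrays it was 0.0033.

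**Figure D2:**
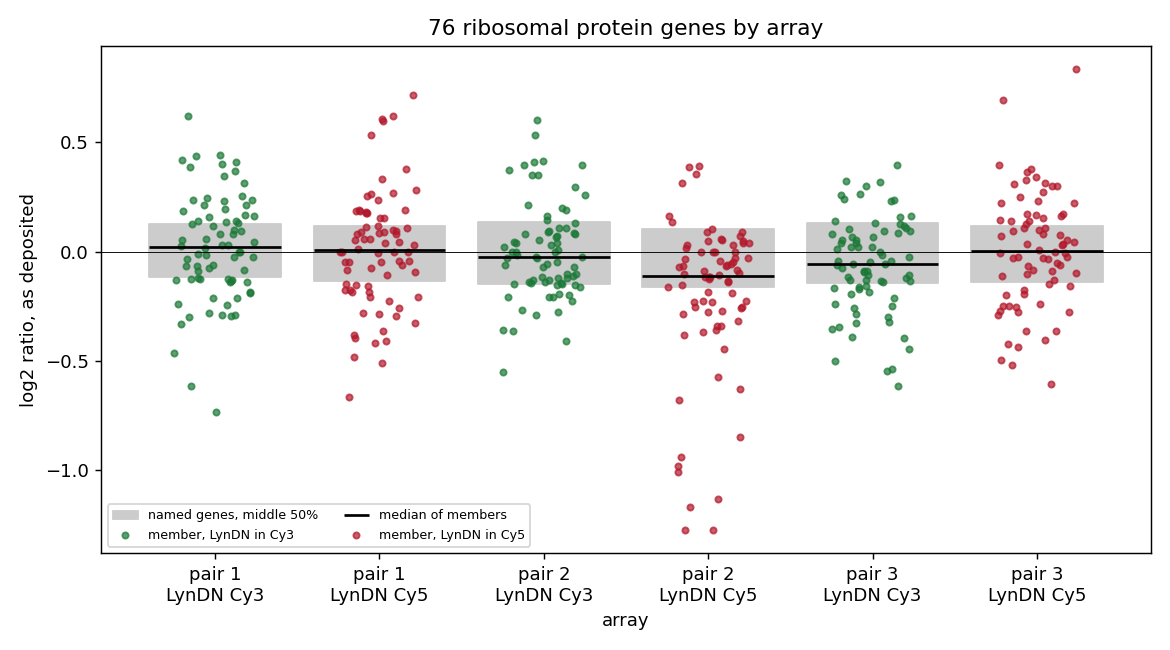
Log2 ratios, as deposited, of the 76 ribosomal protein genes (points) on each array, with their median (black line) and the middle 50% of all named genes (grey band); green is LynDN in Cy3 and red is LynDN in Cy5. The medians lie between -0.11 and 0.021, and the pair 2 array with LynDN in Cy5 has a tail down to -1.27.

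At the low end Rps15 had ratios of 0.24 and -0.48, 0.60 and -1.27, and -0.30 and -0.49, a mean of -0.28 ± 0.14 (SD, n = 3; limma adjusted p = 0.293). In pairs 1 and 2 the sign turned with the dye. It was the gene that passed when pair 1 was left out (mean -0.36, limma adjusted p = 0.0485, where 1117 rows passed in all), and it did not pass without pair 2 or pair 3. Over the 5 arrays left without the pair 2 array with LynDN in Cy5, its mean was -0.13. Rpl35a had a mean of -0.27 ± 0.33 and Rpl26 of -0.25 ± 0.22 (SD, n = 3), each with pair 2 far below the others. Without pair 2 these means were -0.080 and -0.12, and over the same 5 arrays -0.064 and -0.12. At the high end Rpl10, which joins the large subunit late and lets it bind the small one, had -0.055, 0.20 and 0.29 in pairs 1, 2 and 3, a mean of 0.14 ± 0.18. Rpl35 had 0.18, 0.058 and 0.17, a mean of 0.14 ± 0.071, and was positive in all 3 pairs. Rpl7, Rpl6, Rps27 and Rps18 followed with means of 0.11, 0.090, 0.088 and 0.084. None of these 4 had an adjusted p under 0.5 in limma. The mean of Rpl7 rested on pair 3 and was 0.029 without it; Rpl10 had 0.24 without pair 1 and 0.070 without pair 3. Rpl6 and Rps18 also moved by over 1.5 times, to 0.15 and 0.049 without pair 2 and, for Rpl6, to 0.050 without pair 3.

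By role, the genes differed mostly within groups. In the stalk, which recruits the translation factors, Rplp0 had a mean of 0.020 ± 0.058, Rplp1 of 0.034 ± 0.10 and Rplp2 of -0.11 ± 0.13 (SD, n = 3). Rpl5 and Rpl11, which carry the smallest ribosomal RNA into the particle and hold Mdm2 when assembly fails, had 0.051 ± 0.11 and 0.0049 ± 0.11. At the peptidyl transferase side and the L1 arm the 4 genes ran from -0.26 for Rpl10a to 0.14 for Rpl10, with Rpl3 at -0.067 ± 0.076 and Rpl8 at 0.0076 ± 0.075. Of the 9 exit tunnel genes 4 were positive and 5 negative, with a median of -0.042; Rpl4 had 0.071 ± 0.18 and Rpl31 had 0.020 ± 0.013. At the path where the message enters and is decoded, the 4 genes had a median of -0.10. Rps15 was the lowest at -0.28, Rps3 had -0.18 ± 0.12 (limma adjusted p = 0.393), Rps2 had 0.042 ± 0.068 and Rps23 had -0.029 ± 0.067. Where the message leaves, Rps26 had -0.18 ± 0.15, Rpsa 0.021 ± 0.099, Rps28 0.058 ± 0.10 and Rps14 -0.046 ± 0.066. Each of these groups thus held values on both sides of 0, apart from the pair Rpl5 and Rpl11.

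Genes known from ribosome disorders and skin mutants were spread over most of the range of the 76. Rps6, the substrate of the S6 kinases, had -0.067, -0.27 and 0.058 in pairs 1, 2 and 3, a mean of -0.094 ± 0.17 (SD, n = 3). Rps19 and Rps20, the dark skin genes, had means of -0.12 ± 0.078 and 0.0078 ± 0.051. Melanocyte markers beside them were negative in 5 of 6 genes, with a median of -0.31 made up of 0.24, -0.65 and -0.53 in pairs 1, 2 and 3; their relation to these genes was not tested. The 3 genes listed for tail and hair phenotypes were all negative in the mean: Rpl24 had -0.049 ± 0.073, Rpl38 had -0.18 ± 0.18, among the lowest of the 76, and Rpl21, mutated in a human hair loss, had -0.019 ± 0.058. The low mean of Rpl38 rested largely on the pair 2 array with LynDN in Cy5, at -0.94 against -0.21 to 0.14 on the other arrays. Of 18 genes listed for Diamond-Blackfan anaemia 16 were measured, 9 positive and 7 negative, with a median of 0.012 and a range from -0.27 for Rpl35a to 0.14 for Rpl35.

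Paralogues are made in particular tissues or states, and their probes can cross-hybridise with the parent gene. Rpl3l replaces Rpl3 in skeletal and heart muscle. Its ratios were 0.16 and -0.28, -0.15 and -0.23, and -0.095 and -0.52, negative on 5 of 6 arrays, with a mean of -0.19 ± 0.12 (SD, n = 3; limma adjusted p = 0.382). The dye orientations did not overlap, and the mean was -0.027 on the LynDN in Cy3 arrays and -0.34 on the LynDN in Cy5 arrays. By pair Rpl3l had -0.061, -0.19 and -0.31. The median of the 10 skeletal muscle markers went from -0.010 in pair 1 to -0.44 and -0.69 in pairs 2 and 3. The part of muscle in the Rpl3l value was not tested. Rpl3 itself had -0.064, -0.15 and 0.0070. Rpl7l1 and Rpl7 had means of -0.074 ± 0.060 and 0.11 ± 0.14, and Rps27l, a target of p53, and Rps27 had 0.00053 ± 0.14 and 0.088 ± 0.071. Rpl36al and Rpl36a had -0.028 ± 0.11 and -0.11 ± 0.12, and Rpl39l and Rpl39 had -0.042 ± 0.22 and -0.088 ± 0.10. The ranges of parent and paralogue over the 3 pairs overlapped in all of these sets except Rpl7 and Rpl7l1; Rpl22 and Rpl22l1 touched through the pair 2 value of Rpl22l1, -0.32.

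**Figure D3:**
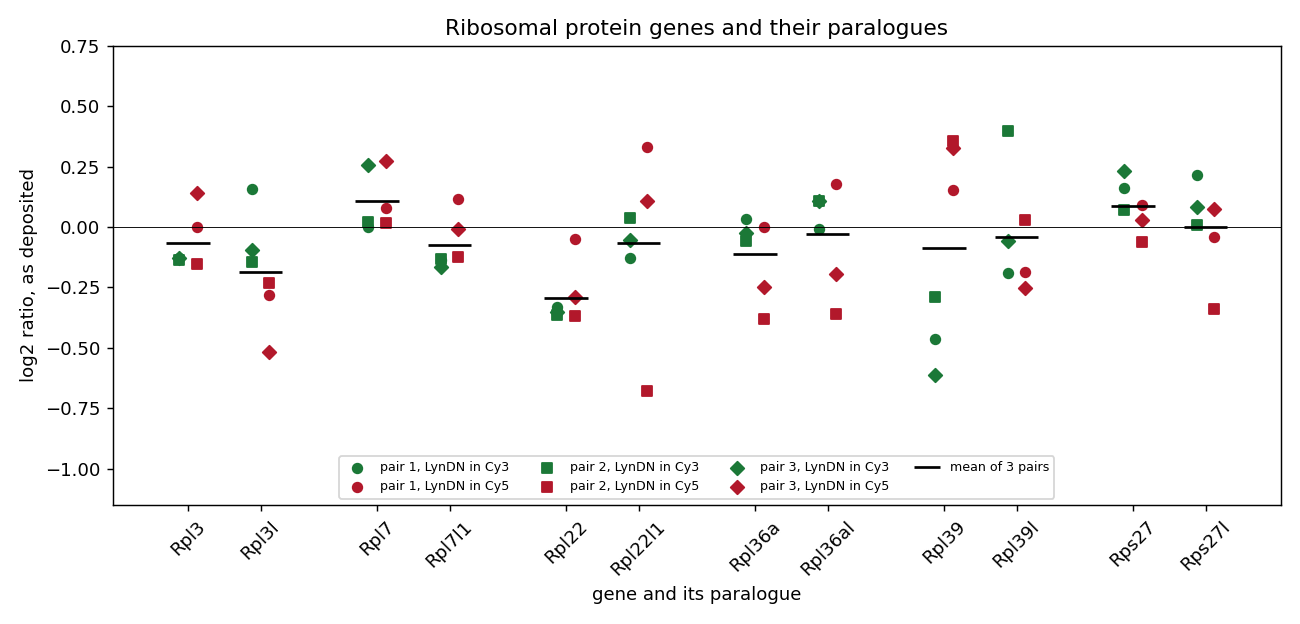
Log2 ratios, as deposited, of 6 ribosomal protein genes and their paralogues on the 6 arrays; colour gives the dye of LynDN, marker shape the mouse pair, and black lines the mean of the 3 pairs. Rpl22 is negative throughout at a mean of -0.29, while Rpl22l1 spreads from -0.68 to 0.33 and Rpl39 separates by dye.

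Since the genotype ratios were small, the dye orientation was compared in the same way, as the ratio with LynDN in Cy5 minus that with LynDN in Cy3, divided by 2. For 49 of the 76 genes (64.5%) this dye difference was larger in size than the genotype ratio, against 52.3% of named genes. Its SD over the genes was 0.19, compared with 0.099 for the genotype ratio and with 0.14 for the dye difference of all named genes. A dye difference of more than 0.3 was found for 10 genes (13.2%) and for 3.32% of named genes. The 3 arrays of one orientation did not overlap the 3 of the other for 31 of the 76, 14 higher with LynDN in Cy5 and 17 higher with LynDN in Cy3, where 26.6% of all rows separated in that way. The sign turned with the dye in all 3 pairs for 17 genes (22.4%) and for 11.4% of all rows. It had 1 sign in all 3 pairs for 41 genes (53.9%), where 45.7% of all rows did. Between pairs 1 and 2, 1 and 3, and 2 and 3, Pearson's r of the dye difference was 0.53, 0.68 and 0.38 over the 76 genes and 0.43, 0.37 and 0.36 over all named genes; for pairs 2 and 3 the value is below the 0.45 that the genotype ratio reached between pairs 1 and 3.

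Rpl23a, which sits at the mouth of the exit tunnel where the signal recognition particle docks, was the gene whose dye difference passed. Its ratios were -0.61, -0.55 and -0.54 with LynDN in Cy3 and 0.72, 0.39 and 0.34 with LynDN in Cy5. The orientations did not overlap, and the averaged ratio was -0.042 ± 0.081. The dye difference was 0.52 ± 0.12 (SD, n = 3; limma adjusted p = 0.0399), where 0.573% of all rows passed (0.214% positive and 0.358% negative). It was positive in 3 of 3 pairs, and leaving out any 1 pair ended the call (limma adjusted p from 0.0731 to 0.195). With the mouse pair as a replicate block, 9 of the 76 genes (11.8%) had a dye difference, against 2.56% of all rows: Rpl23a, Rpl35, Rpl39 and Rpl29 with higher ratios with LynDN in Cy5, and Rps9, Rps2, Rps19bp1, Rpl13a and Rpl26 with lower ones.

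Rps9, needed for accurate decoding, ran opposite to Rpl23a, with 0.62, 0.41 and 0.32 with LynDN in Cy3 and -0.38, -0.27 and -0.27 with LynDN in Cy5. The orientations were separate and each tight, and the averaged ratio was 0.071 ± 0.047. Rpl35 had -0.24, -0.20 and -0.34, then 0.61, 0.31 and 0.69. Its averaged ratio of 0.14 therefore joins values of opposite sign. Rpl39, the smallest exit tunnel protein, had -0.46, -0.29 and -0.61, then 0.16, 0.36 and 0.33. Rpl37a followed the same order in pairs 1 and 3 (-0.73 to 0.60, and -0.45 to 0.84) and not in pair 2 (-0.41 to -0.57). Genes with a pyrimidine match in the window around the annotated start stood on both sides. Rpl35 and Rpl39 had a positive and Rps9 and Rpl13a a negative dye difference. Rpl26, at the other extreme from Rpl23a, had 0.42, 0.26 and 0.14, then -0.67, -1.27 and -0.36, a dye difference of -0.52 ± 0.26. Rpl13a had 0.40, 0.19 and 0.16, then -0.51, -0.25 and -0.42, so both genes changed sign with the dye in every pair. Rpl22 had a dye difference of 0.057 ± 0.075, well below its ratio.

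**Figure D4:**
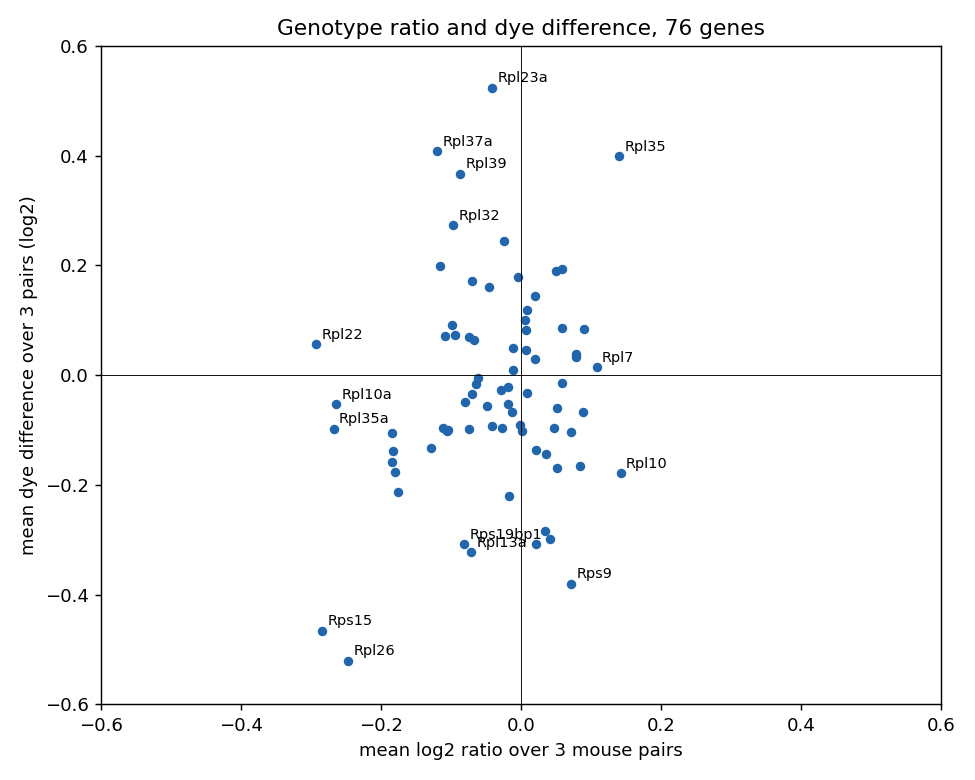
Mean log2 genotype ratio over the 3 mouse pairs (horizontal axis) and mean dye difference over the same pairs (vertical axis) of the 76 ribosomal protein genes, both axes on the same scale. The cloud is taller than it is wide, with Rpl23a at the top (0.52), Rpl26 at the bottom (-0.52) and Rpl22 at the far left with a dye difference of 0.057.

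Values of exactly 0 also gathered in these genes. Among the 462 values of the 77 probes 14 were deposited as exactly 0 (3.03%), compared with 109 values, 0.0717%, in the whole table, and they fell in 13 genes: Rpl3, Rpl7, Rpl9, Rpl11, Rpl19, Rpl27, Rpl35a, Rpl36a, Rps12, Rps21, Rps23, Rps24 and Rps25. The sources do not say what a 0 stands for. With the affected pair values left out, the median over the 76 genes was -0.019 and 0 genes passed. Rpl17 was the gene with 2 probes, whose pair values were 0.15, -0.013 and 0.056 for the first and 0.14, -0.37 and 0.073 for the second, alike in pairs 1 and 3 and apart in pair 2.

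Other genes of translation and its control included larger ratios than any of the 76, and whether the lists differ was not tested. In each list of related genes 0 members passed in limma on the pair values. Beside the 12.3% of all rows with an unadjusted p under 0.05, such values were found for 4 of 55 biogenesis, 4 of 20 polymerase I, 1 of 9 elongation, 6 of 36 initiation, 2 of 20 other TOP, 7 of 25 mTORC1 and 5 of 77 mitochondrial ribosomal genes. Of 55 ribosome biogenesis factors 37 were positive, with a median of 0.030. Eif6, which keeps the large subunit from joining the small one until it is mature, had 0.17, 0.70 and 0.70 in pairs 1, 2 and 3, a mean of 0.53 ± 0.31 (SD, n = 3; limma adjusted p = 0.282), the highest of that list. Noc4l, a nucleolar factor of small subunit assembly, had 0.22 ± 0.015 (adjusted p = 0.278), although its values with LynDN in Cy5 were -0.12, -0.083 and 0.027. Genes of RNA polymerase I and of rDNA transcription were negative in 14 of 20 (median -0.013), with Polr1c at -0.23 ± 0.10 and Znrd1 at -0.18 ± 0.026.

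Initiation factors were negative in 26 of 36 (median -0.057), with Eif4a2, a helicase that opens message leaders, at -0.23 ± 0.088 and Eif1a at 0.35 ± 0.19 (SD, n = 3). Elongation factors were negative in 6 of 9 (median -0.091), led by Eef2k, the kinase that switches off elongation factor Eef2, at -0.24 ± 0.12; Eef2 itself had -0.14 ± 0.079. Other messages with a TOP tract, from a list that shares genes with the initiation, elongation and biogenesis lists, were negative in 15 of 20. Their median was -0.068, and -0.18 in pair 2, the pair in which the ribosomal protein genes were lowest too. Pair 2 was also the lowest for initiation factors (-0.11), mitochondrial ribosomal genes (-0.068), mTORC1 genes (-0.035), biogenesis factors (-0.026) and all named genes (-0.021). The elongation and polymerase I lists were lowest in pair 3. Eif3f had -0.22 ± 0.13 and Eif4b -0.19 ± 0.11. The 77 mitochondrial ribosomal protein genes, which build the separate ribosome of mitochondria, had a median of -0.035, with 26 positive and 51 negative, and Mrps33 and Mrpl34 at -0.21 ± 0.059 and -0.20 ± 0.069.

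Among 25 genes of mTORC1, S6 kinase and MYC control 12 were positive and 13 negative (median -0.014). The SD over these means was 0.17, against 0.23 over all named genes. On all 6 arrays 5 genes (20%) had 1 sign, as did 8.03% of all rows. Deptor, an inhibitor of mTOR, had 0.34 ± 0.16, and Pdcd4, which holds back the helicase Eif4a, had -0.35 ± 0.36 (SD, n = 3). Rps6ka6, an RSK family kinase, was negative on 6 of 6 arrays, with pair values of -0.30, -0.47 and -0.36 and a mean of -0.38 ± 0.087 (SD, n = 3). It did not pass on the pair values (limma adjusted p = 0.237). With the replicate block it passed (limma adjusted p = 0.0343), as did 1.06% of all rows. That fit counts both arrays of a pair, which hold RNA of the same 2 mice. Cdkn1a, a p53 target that rises when ribosome assembly is disturbed, had -0.32 ± 0.13 (limma adjusted p = 0.278). Larp1 had 0.18 ± 0.074 and Myc 0.16 ± 0.080. Rps6kc1, a kinase-like gene whose symbol resembles those of ribosomal proteins, showed the dye in its strongest form in that list: it had 1.58, 1.97 and 1.88 with LynDN in Cy3 and -2.07, -1.94 and -1.89 with LynDN in Cy5, and averaged to -0.079 ± 0.14.

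**Figure D5:**
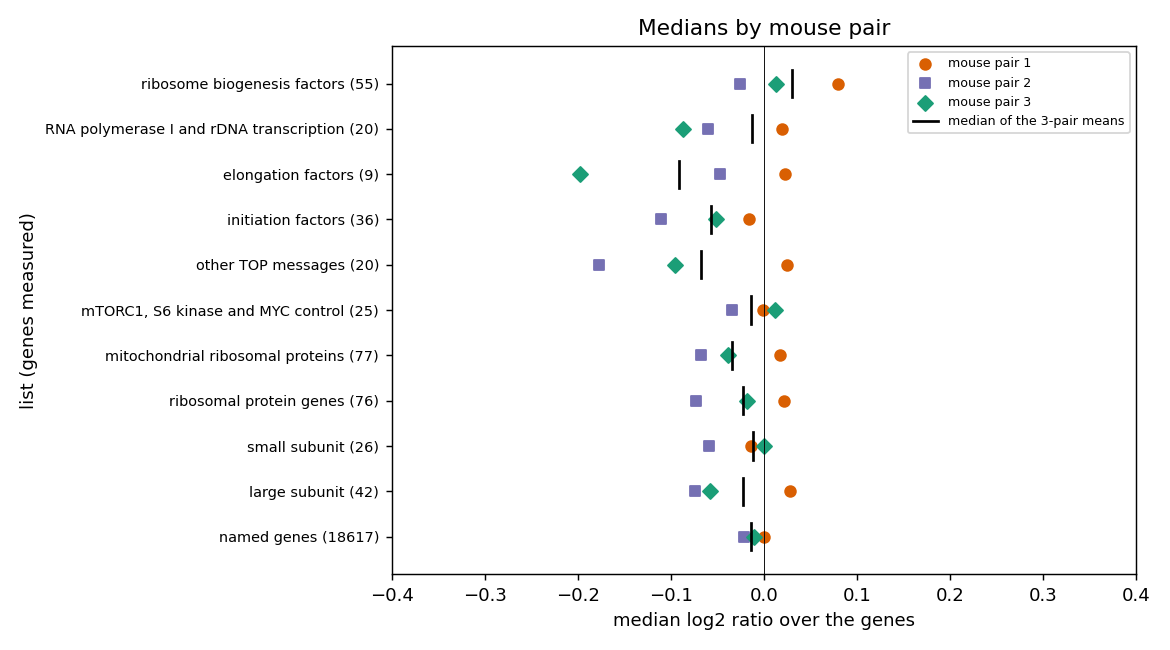
Median log2 ratio, as deposited, of the ribosomal protein genes, their subunits and related lists (rows, with the number of genes measured) in each mouse pair (coloured markers), and the median of the 3-pair means (black line). All medians lie between -0.20 and 0.080, and those of the ribosomal protein genes between -0.073 and 0.022.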

How the data were processed

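The deposited table holds 1 log2 ratio per probe and array for 25344 probes; the authors' log base, numerator, scanner, background correction and normalization are not given in the sources (labels and table) used here, and base 2 was assumed from the range. Per the labels, RNA was extracted with Qiagen and labelled with Ambion reagents, and both arrays of a swap carry the same 2 mice, which is where the pairing comes from. With ratios alone, spot brightness, saturation and depth are unknown, and the number of arrays limits the precision.

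Probes were named through the platform annotation, and 75 of the 76 ribosomal protein symbols matched a RefSeq table of GRCm38.p6 by Entrez identifier. Probes of 1 symbol were averaged, and so were the 2 arrays of a pair. SDs are over 3 pair values. The pair means, and the dye differences, were tested (null value 0) by lmFit and eBayes of limma 3.58.1 under R 4.3.3, Benjamini-Hochberg adjusted over 22879 rows at 0.05. The replicate block fit used 6 arrays, a dye term and duplicateCorrelation (0.151). At so low a correlation the 2 arrays of a pair, which hold the same 2 RNAs, count as nearly separate observations. Its calls for genotype and for dye thus draw on technical replicates. Figures used matplotlib 3.10.9.

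Genes and lists were chosen with earlier results of these data known. Genes named are S100a9 and S100a8, and those at both ends of the ratio and the dye difference. The role groups, the paralogues and the 2 smallest p of each related list were named too. Larp1, Myc, Deptor, Pdcd4, Eif2s3y, Rps6kc1 and the genes low on the pair 2 array or with a 0 were named after their values were seen. Alternatives covered normalization, centring, probes, table rows, each pair, moderation and dye orientation; neighbouring rows, the 5-array fit, exact 0 values and leaving out Rps19bp1 and Rps23rg1 were added after seeing the data. No filter on dim spots could be run.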

Additional observations from a re-analysis of the deposited data

Results flagged for a closer look

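The ratio of Rpl23a differed between the dye orientations, with a difference of 0.52 on the log2 scale (LynDN in Cy5 minus LynDN in Cy3, divided by 2; limma adjusted p = 0.0399). All 3 arrays with LynDN in Cy3 were negative and all 3 with LynDN in Cy5 were positive.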

How the results depend on the processing

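The count of ribosomal protein genes called for genotype was 0 in every alternative run except when pair 1 was left out; over the fits without 1 pair it ranged from 0 to 1. The median ratio stayed within the spread between pairs in all alternatives, from -0.053 to 0.0033, and its sign turned in the fit without the pair 2 array with LynDN in Cy5. With the replicate block the count of dye differences was 9 and no genotype call among the 76 genes changed. Over all rows 4 passed for genotype as reported, 79 after quantile normalization, 243 with the block, 1117, 2 and 4 without pairs 1, 2 and 3, 54 and 24 on the LynDN in Cy3 and LynDN in Cy5 arrays alone, 34 over 5 arrays and 0 without moderation. The count of dye differences, 1 as reported, was 0 after quantile normalization and without variance moderation, 5 with rows from 21000 on left out (66 genes and fewer rows tested), 2 with the median of neighbouring rows subtracted and 3 over 5 arrays. Without 1 pair each it ranged from 0 to 0, with fewer samples; the cause of the other changes was not tested. With single dye orientations some means turned sign: Rpl26 was 0.27, Rpl35 -0.26 and Rps15 0.18 on the LynDN in Cy3 arrays, and Rpl10 -0.037 and Rps18 -0.081 on the LynDN in Cy5 arrays, where the dye does not cancel. Rps18 was -0.023 with neighbouring rows subtracted.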
